A study of Mus musculus with 11 samples.

Results

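The departure from additivity of CBL0137 and panobinostat was computed for 15497 of the 24411 genes in the table, those with at least 1 TPM in at least 2 of the 11 libraries. TPM are the authors' abundance estimates, corrected for transcript length and scaled to the same total in each library. For each gene the departure was the mean log2(TPM + 1) after both drugs, minus the mean after CBL0137, minus the mean after panobinostat, plus the mean after vehicle. A departure of 0 means that both drugs together changed a gene by the sum of its 2 single-drug log2 changes. A positive departure is called above additive here and a negative one below additive. The filter used expression only, and all 11 libraries entered. The 144 genes whose second-highest value lay between 1 and 1.1 TPM had a median departure of -0.10, and the 149 genes left out with 0.9 to 1 TPM had one of -0.06.

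CBL0137 is a curaxin, a DNA-binding small molecule that traps the histone chaperone FACT on chromatin, and curaxins are known to induce interferon-type genes. Panobinostat inhibits histone deacetylases and so raises histone acetylation. Neuroblastoma cells are of the sympathetic lineage and keep an adrenergic programme of catecholamine enzymes and transcription factors. A sum of log2 changes is a product of fold changes in TPM, so a second expectation that adds the TPM changes themselves is given beside the first.

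All tumours arose in homozygous Th-MYCN mice, which carry a MYCN transgene driven by the tyrosine hydroxylase promoter, so expression of the transgene is limited to cells that use this promoter. Treatment began when a tumour was about 5 mm across, and tumours were taken 16 h after 1 dose. Combination mice (n = 3) received CBL0137 at 40 mg/kg intravenously and panobinostat at 5 mg/kg intraperitoneally. The CBL0137 group (n = 3) and the panobinostat group (n = 2, replicates 1 and 3) received 1 drug at the same dose and route. Control mice (n = 3) received vehicle intraperitoneally. Panobinostat replicate 2 and the human transgene are not analysed here. Each library is RNA of a whole tumour from 1 mouse. For every group of genes below, fewer cells of a type and less RNA per cell cannot be told apart.

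Libraries held 12856 to 14747 genes at 1 TPM or more. The adrenergic markers of the tumour cells summed to 1242 to 2232 TPM after both drugs, 2651 to 3030.4 TPM after CBL0137, 1791 to 2241 TPM after panobinostat and 2099 to 2495 TPM after vehicle. Several libraries also held RNA of other tissues. Adrenal cortex markers summed to 7658 TPM in combination library 2 and to 44.7 to 102 TPM in the other 10. Skeletal muscle markers summed to 14195 TPM in panobinostat library 3 and to 11.3 to 1087 TPM elsewhere. Kidney markers were highest in vehicle library 2, at 495 TPM, against 9.99 to 197 TPM elsewhere. B cell markers were highest in CBL0137 library 3, at 184 TPM, against 3.54 to 86.7 TPM elsewhere. All 14 muscle markers were below additive, with a median departure of -3.03, and 13 of them were above it without combination library 2 and panobinostat library 3 (median 1.96). The median of the 10 adrenal cortex markers was 3.35 and 0.53 without those libraries. Gene groups are therefore given with and without these 2 libraries, which are called the doubted libraries. Without them panobinostat library 1 alone set the panobinostat mean, so that group had no spread of its own. The median departure over all tested genes was then -0.07, against -0.02 with all libraries.

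Across all 15497 genes the median departure was -0.02, with 7479 above 0 (48.3%) and 8018 below (51.7%). The limma interaction test called 0 genes at an adjusted p of 0.05 (0%), and its smallest adjusted p was 0.304. With estimated library weights limma called 11 genes. Calls made without panobinostat library 1 were mostly genes of muscle, and muscle markers were high in library 3, then the only panobinostat library. At an unadjusted p under 0.05 there were 818 genes above additive (5.28%) and 813 below (5.25%). Large departures were mostly negative, with 659 genes at -1 or lower (4.25%) and 231 at 1 or higher (1.49%). Without combination library 2 and panobinostat library 3 these numbers were 711 (4.59%) and 342 (2.21%). No single departure below passed the test. Departures are therefore given as values with their standard errors, and gene groups by their counts and medians beside those of all tested genes. The gene lists were written with earlier results of these data known, so these counts describe the lists and are not a test of them. Group means come from separate mice. The single-drug and combination changes set beside them come from the same libraries as the departures.

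**Figure D1:**
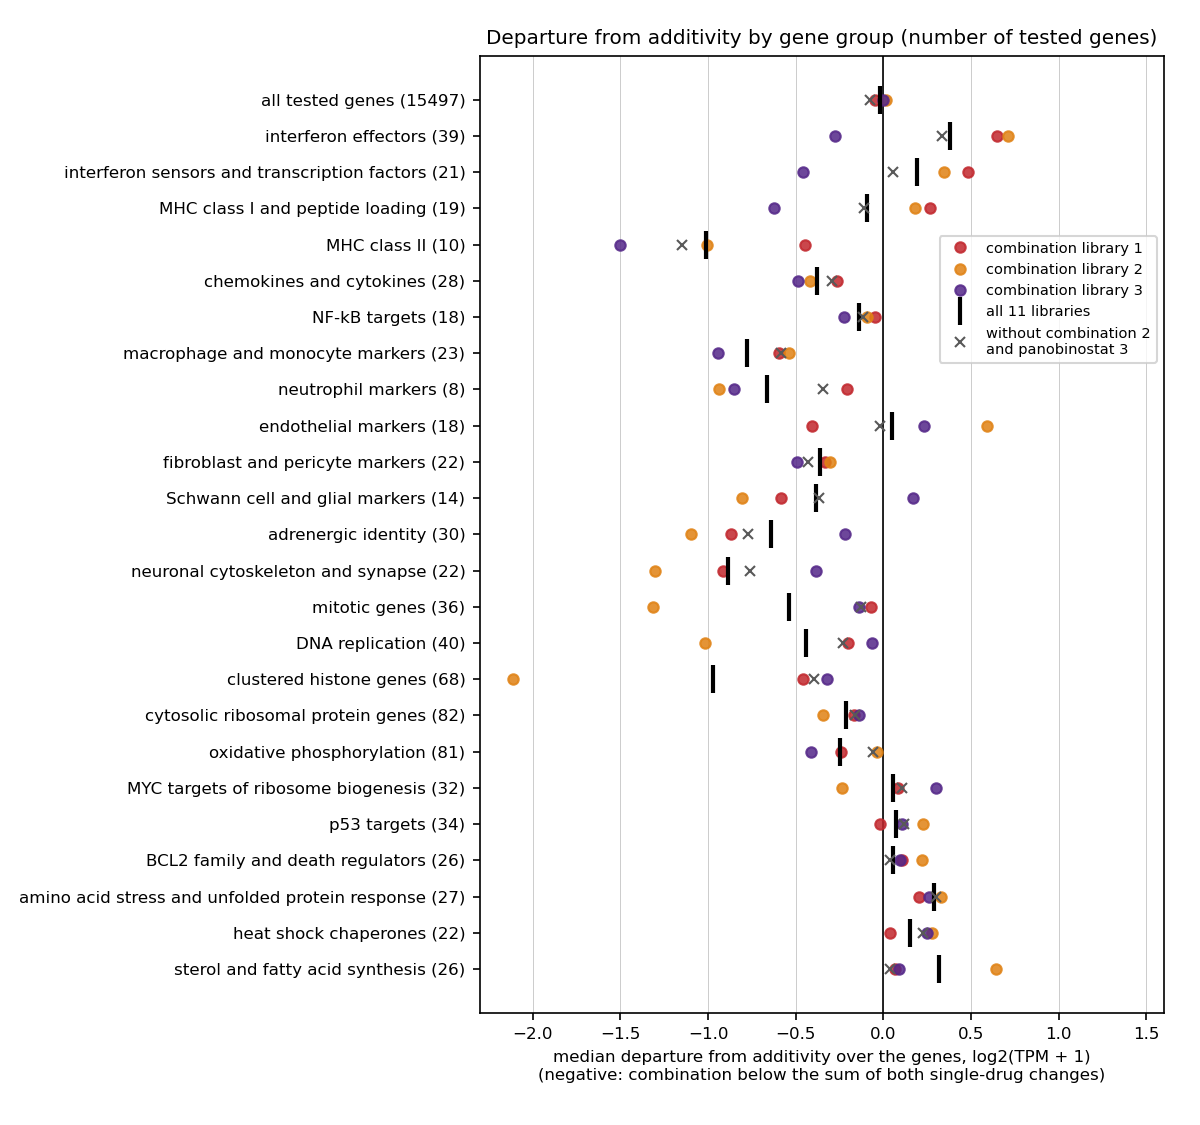
Median departure from additivity, on the log2(TPM + 1) scale, for 24 gene groups and for all tested genes. Black bars use all 11 libraries, coloured points set each combination library against the same expectation, and crosses leave out combination library 2 and panobinostat library 3. Neuronal genes lie left of 0 in all 3 combination libraries (-0.92, -1.30 and -0.39), whereas mitotic genes lie far left in library 2 alone (-0.07, -1.32 and -0.14).

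Genes were ranked by the limma p of the departure among 154 genes above additive (0.994%) and 458 below (2.96%) that reached a group mean of 5 TPM, departed by 1 or more, and kept their sign whichever library was left out. The ranking used the departures, so the values of these genes are a description. Of the 12 genes ranked lowest below additive, 9 had all 3 combination libraries below all 8 others (16.3% of all tested genes). Their departures ran from -2.07 to -1.15, with limma adjusted p from 0.304 to 0.347. Ffar3, a short-chain fatty acid receptor of sympathetic neurons, had 3.21, 4.89 and 4.26 TPM after both drugs, 14.2, 20.1 and 15.3 TPM after CBL0137, 10.7 and 7.48 TPM after panobinostat and 5.77, 8.83 and 7.17 TPM after vehicle. It rose by 1.09 (log2) after CBL0137 (limma adjusted p = 0.0181) and fell by 0.69 after both drugs (limma adjusted p = 0.0167), and its departure was -2.07 ± 0.32 (SE). Every combination library lay below every other library. Ddc, the decarboxylase that makes dopamine, had 112, 83.1 and 122 TPM in the combination tumours, against 442, 514 and 365 TPM with CBL0137, 189 and 211 TPM with panobinostat and 252, 271 and 311 TPM with vehicle. Its combination libraries were all below its panobinostat libraries, which were all below the vehicle and CBL0137 ones. Ddc rose by 0.65 after CBL0137 (limma adjusted p = 0.0467) and fell by 1.40 after both drugs (limma adjusted p = 5.3e-05), a departure of -1.58 ± 0.25 (limma adjusted p = 0.304).

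Pnck, a calmodulin-dependent kinase of brain, and Gjd2, the neuronal gap junction protein connexin 36, both had their highest values after CBL0137. Pnck had 8.06, 11.97 and 11.4 TPM after both drugs, 29.4, 34.5 and 30.4 TPM after CBL0137, 18.3 and 13.7 TPM after panobinostat and 16.2, 18 and 16.7 TPM after vehicle. Gjd2 had 9.98, 14.9 and 14.2 TPM in the combination tumours, against 54.3, 46.6 and 47.3 TPM with CBL0137, 15.2 and 13.8 TPM with panobinostat and 22.1, 17.4 and 26.01 TPM with vehicle. Both rose after CBL0137, by 0.85 and 1.16 (limma adjusted p = 0.0155 and 0.00541), and both were lower than vehicle after the combination, by 0.67 and 0.70 (limma adjusted p = 0.00456 and 0.00546). Their departures were -1.42 ± 0.24 and -1.31 ± 0.27. Combination libraries 2 and 3 of Gjd2 lay between the panobinostat libraries, whereas all combination libraries of Pnck lay below all others.

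Efnb3, an ephrin that guides axons, had 5.31, 5.36 and 5.11 TPM after both drugs, 27.7, 27.4 and 21.3 TPM after CBL0137, 12.8 and 10.2 TPM after panobinostat and 19.9, 19.02 and 21.7 TPM after vehicle. Here panobinostat alone lowered the gene by 0.77 (limma adjusted p = 0.0038), the combination was lower still, and the 3 combination libraries were nearly equal. The departure was -1.30 ± 0.21. Gap43, a growth cone protein, had 54.7, 45.4 and 73.9 TPM in the combination tumours, against 167, 216 and 171 TPM with CBL0137, 142 and 113 TPM with panobinostat and 154, 104 and 135 TPM with vehicle, with a departure of -1.64 ± 0.30. Neither drug alone changed Gap43 past the threshold (limma adjusted p = 0.163 and 0.926), and after both it fell by 1.17 (limma adjusted p = 0.000508). Without the doubted libraries the departures were -2.41 for Ffar3, -1.34 for Ddc and -1.64 for Gap43. The ranking required the same sign there, so it was the same in all 12 by choice. The others of the 12 were Nkain4, a sodium pump partner (-1.90 ± 0.34), Rab3b, a synaptic vesicle GTPase (-1.24 ± 0.25), Cacnb1, a calcium channel subunit (-1.31 ± 0.27), Clec2l, a C-type lectin (-1.23 ± 0.26), Ckmt1, the mitochondrial creatine kinase (-1.58 ± 0.34), and Lyrm9 (-1.15 ± 0.25). Cacnb1 rose after panobinostat alone (limma adjusted p = 0.00815), with 5.43, 6.26 and 7.96 TPM after both drugs and 13.7 and 20.9 TPM after panobinostat. Its vehicle libraries had 9.74, 8.8 and 8.56 TPM. The value of 20.9 TPM was that of panobinostat library 3, in which muscle RNA was high, and the part of muscle RNA was not tested. Without the doubted libraries the departure of Cacnb1 was -1.002.

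**Figure D2:**
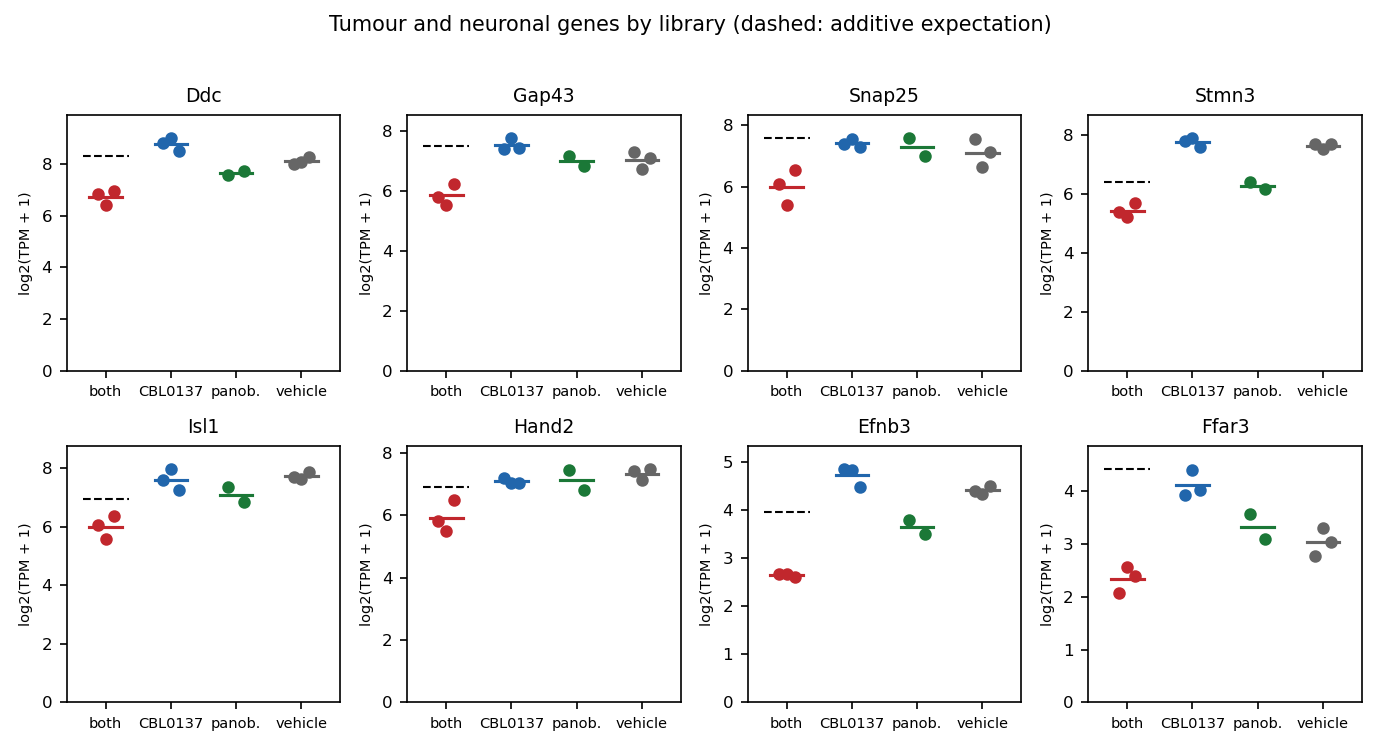
log2(TPM + 1) of 8 tumour and neuronal genes in each library (points), with group means (bars) and the additive expectation for the combination (dashed line). The combination means lie below the dashed line in all 8 genes, with departures of -1.58 for Ddc, -1.64 for Gap43 and -0.98 for Stmn3.

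The list of neuronal cytoskeleton and synapse genes was below additive in 21 of 22 tested genes, with a median departure of -0.88. At an unadjusted p under 0.05, 12 of the 22 were below additive and 0 above, against 5.25% and 5.28% of all genes. The median was -0.92, -1.30 and -0.39 for combination libraries 1 to 3 and -0.76 without the doubted libraries. On the TPM scale, too, 20 of 22 were below expectation (38.4% of all genes). Of the 22, 18 fell after both drugs, 8 after panobinostat and 0 after CBL0137 (limma, 30.1%, 16.9% and 1.13% of all genes). Stmn3 and Stmn4, microtubule regulators of the stathmin family, belong to this list. Stmn3 had 41.1, 36.1 and 50.7 TPM after both drugs, 222, 238 and 194 TPM after CBL0137, 82.8 and 70.8 TPM after panobinostat and 205, 182 and 208 TPM after vehicle, with a departure of -0.98 ± 0.20. Stmn4 had 24.2, 17.6 and 39.02 TPM in the combination tumours, against 147, 163 and 127 TPM with CBL0137, 76.2 and 56.7 TPM with panobinostat and 156, 127 and 124 TPM with vehicle, with a departure of -1.43 ± 0.37. In both genes the combination was lowest and panobinostat next, with no overlap, while CBL0137 and vehicle overlapped each other above them. Snap25, a SNARE protein of vesicle release, had 66.6, 41.04 and 91.04 TPM after both drugs, 165, 188 and 155 TPM after CBL0137, 188 and 126 TPM after panobinostat and 185, 98.3 and 139 TPM after vehicle. For Snap25 the 3 other groups overlapped and the combination lay below them, with a departure of -1.59 ± 0.45.

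The adrenergic identity list, the catecholamine enzymes and core transcription factors of these tumours, was below additive in 26 of 30 genes (median -0.64). Without the doubted libraries it was so in 29 of 30 (57.3% of all genes, against 42.7% above, median -0.77). Against panobinostat alone 7 were lower and 1 higher after both drugs (limma, 4.3% and 6.24% of all genes). Combination library 3 was nearest to additive, at -0.22, against -0.87 and -1.10 for libraries 1 and 2. Both drugs together lowered 14 and raised 7 of the 30 (limma, against 30.1% and 35.9% of all genes). Isl1, a sympathetic homeobox factor, had 66.4, 46.6 and 82.6 TPM after both drugs, 194, 249 and 151 TPM after CBL0137, 162 and 115 TPM after panobinostat and 208, 198 and 236 TPM after vehicle. Hand2, a bHLH factor of the same circuit, had 55.9, 43.9 and 88.5 TPM in the combination tumours, against 147, 132 and 129 TPM with CBL0137, 177 and 112 TPM with panobinostat and 170.2, 139.7 and 178 TPM with vehicle. The combination libraries of both genes lay below all others, and their departures were -0.96 ± 0.35 and -0.96 ± 0.36. Dbh, which makes noradrenaline, had 52.99, 106 and 96.9 TPM after both drugs, 90.5, 91.1 and 107 TPM after CBL0137, 53.7 and 56.8 TPM after panobinostat and 48.9, 14.8 and 33.4 TPM after vehicle. It rose after CBL0137 (limma adjusted p = 0.0289) and after both drugs (limma adjusted p = 0.00604), with a departure of -1.13 ± 0.56. Th, the rate-limiting enzyme and the source of the transgene's promoter, had 150.4, 416 and 329 TPM in the combination tumours, against 287, 249 and 342 TPM with CBL0137, 215 and 120.5 TPM with panobinostat and 179, 99.6 and 132 TPM with vehicle, a departure of -0.35 ± 0.55 with overlap between the combination and each other group. Slc18a2, the vesicular monoamine transporter, had a departure of -1.14 ± 0.44. Macrophage markers summed to 9315 to 13183 TPM after both drugs and 1013 to 1244 TPM after vehicle, and their part in the values of tumour genes was not tested. Mouse Mycn itself was at 3.12, 5.37 and 11.9 TPM after both drugs and 5.69, 6.46 and 5.94 TPM after vehicle, with a departure of -0.82 ± 0.56.

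Among the 12 genes ranked highest above additive, 10 had all 3 combination libraries above all 8 others (19.4% of all tested genes), with departures of 1.01 to 2.83 and limma adjusted p from 0.304 to 0.347. Lipg, endothelial lipase, was near 0 after panobinostat or vehicle and had 9.18, 7.5 and 6.03 TPM after both drugs, 0.66, 0.96 and 1.300 TPM after CBL0137, 0.21 and 0.31 TPM after panobinostat and 0.04, 0.19 and 0.09 TPM after vehicle. Its departure was 1.93 ± 0.31. Dck, deoxycytidine kinase of nucleoside salvage, had 100.3, 82.1 and 64.4 TPM in the combination tumours, against 56.98, 57.3 and 52.2 TPM with CBL0137, 37.2 and 35 TPM with panobinostat and 66.3, 54.04 and 59.2 TPM with vehicle. Panobinostat alone lowered Dck by 0.71 (limma adjusted p = 0.00722), and both drugs together raised it by 0.43 (limma adjusted p = 0.0245), although combination library 3 lay within the vehicle range. Its departure was 1.25 ± 0.22. Daxx, a chaperone of histone H3.3, had 108, 80.05 and 56.05 TPM after both drugs, 28.3, 24.8 and 44.96 TPM after CBL0137, 19.8 and 17.6 TPM after panobinostat and 23.4, 23.8 and 24.6 TPM after vehicle. Neither drug alone changed Daxx past the threshold (limma adjusted p = 0.368 and 0.348), the combination raised it by 1.67 (limma adjusted p = 0.000207), and the departure was 1.63 ± 0.37.

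Tor1aip2, a torsin cofactor of the endoplasmic reticulum, had 251, 271 and 172 TPM in the combination tumours, against 100.5, 101 and 124 TPM with CBL0137, 83.1 and 87.8 TPM with panobinostat and 99.02, 94.04 and 91.8 TPM with vehicle, a departure of 1.21 ± 0.24. Clic4, a chloride intracellular channel protein, had 207, 261 and 192 TPM after both drugs, 87.99, 73.9 and 112 TPM after CBL0137, 81.4 and 103 TPM after panobinostat and 89.7, 79.3 and 75.5 TPM after vehicle, a departure of 1.10 ± 0.25. In both genes the 3 groups without the combination were close together and the combination stood apart. The remaining genes were Rnf114, a ubiquitin ligase (1.10 ± 0.24), Rap2c, a small GTPase (1.03 ± 0.23), Dusp2, a MAP kinase phosphatase (1.43 ± 0.34), Slc25a22, a mitochondrial glutamate carrier (1.29 ± 0.31), Ankle2 of the nuclear envelope (1.07 ± 0.26) and Ccdc86 (1.01 ± 0.24). For Ccdc86 the combination and vehicle libraries overlapped, at 14.7, 12.03 and 15.1 TPM after both drugs and 12.5, 16.5 and 12.6 TPM after vehicle, while each drug alone gave 7.94 to 11 TPM. Without the doubted libraries these 12 departures ran from 0.82 to 2.68. Whether these genes respond to interferon was not tested. The last of the 12, Cmpk2, is on the interferon effector list and is described next.

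Interferon effector genes rose together in the combination. All 39 rose after both drugs (limma, 35.9% of all genes) and after CBL0137 (4.99%), and 33 rose after panobinostat (25.5%). Against panobinostat alone 38 were higher after both drugs (6.24%), and against CBL0137 alone all 39 were (33.2%). The median changes were 6.15 (log2) after both drugs, 4.13 after CBL0137 and 1.71 after panobinostat. Against the sum of log2 changes, 30 of 39 were above additive and 9 below, with a median departure of 0.38. At an unadjusted p under 0.05, 4 were above and 1 below (5.28% and 5.25% of all genes). The median was 0.65, 0.71 and -0.28 for combination libraries 1 to 3, so library 3 lay on the other side of 0. It was 0.34 without the doubted libraries. With 0.1 TPM added in place of 1 before the logarithm the median was -0.26, and with 5 TPM added it was 1.06. Against the sum of TPM changes, all 39 were above expectation (61.5% of all genes), with a median log2 ratio of 1.82. The summed TPM of the list was 17994, 17080.3 and 8608 after both drugs, 2145, 2408 and 6112 after CBL0137, 1032 and 1108 after panobinostat and 149.9, 144 and 127 after vehicle. CBL0137 library 3 was the highest of its group. With 1 library left out the median departure was lowest, 0.15, without CBL0137 library 1 and highest, 0.77, without CBL0137 library 3. Markers of macrophages and B cells were also higher after both drugs than after vehicle in every library, as given below, and their part in the interferon values was not tested.

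Cmpk2, a mitochondrial nucleotide kinase, had 399.8, 408 and 178 TPM after both drugs, 38.9, 38.97 and 105 TPM after CBL0137, 6.60 and 7.10 TPM after panobinostat and 9.61, 7.86 and 9.81 TPM after vehicle. CBL0137 alone raised it by 2.46 (limma adjusted p = 0.00736), panobinostat alone did not change it past the threshold (-0.36, limma adjusted p = 0.546), and both together raised it by 4.94 (limma adjusted p = 9.7e-06). Its departure was 2.83 ± 0.60, with 3.21, 3.24 and 2.05 for the 3 combination libraries. Oas3, which makes the 2′-5′ oligoadenylate that activates RNase L, had 83.5, 72.7 and 39.5 TPM in the combination tumours, against 5.49, 6.65 and 18.2 TPM with CBL0137, 0.77 and 0.84 TPM with panobinostat and 0.17, 0.09 and 0.10 TPM with vehicle. Ifit2, an RNA-binding antiviral protein, had 699, 597 and 269 TPM after both drugs, 81.4, 81.5 and 198 TPM after CBL0137, 13.8 and 15.97 TPM after panobinostat and 14.5, 10.4 and 13.7 TPM after vehicle. In all 3 genes the combination libraries lay above all others. The departures of Oas3 and Ifit2 were 1.99 ± 0.59 and 1.93 ± 0.60. Over all alternative fits, other pseudocounts included, the lowest were 0.76 and 1.66. Oas3 was under 1 TPM in all panobinostat and vehicle libraries.

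Other effectors were nearer to additive on the log2 scale, or below it. Isg15, a ubiquitin-like modifier, had 944, 961 and 498 TPM after both drugs, 134, 112 and 313 TPM after CBL0137, 10.5 and 14.3 TPM after panobinostat and 2.96, 2.73 and 2.09 TPM after vehicle. Its departure was 0.29 ± 0.55, and its libraries 1 to 3 gave 0.59, 0.62 and -0.33. Ifit1, which binds foreign RNA ends, had 659, 667 and 289 TPM in the combination tumours, against 75.2, 79.9 and 201 TPM with CBL0137, 3.51 and 6.63 TPM with panobinostat and 0.32, 0.73 and 1.09 TPM with vehicle, a departure of 0.43 ± 0.65. Every combination library was above every CBL0137 library in both genes. Ifi27l2a had 3518, 2226 and 1115 TPM after both drugs, 235, 523 and 1141 TPM after CBL0137, 514 and 425 TPM after panobinostat and 30.4, 33.4 and 19.4 TPM after vehicle, a departure of -2.08 ± 0.81. It rose by 4.22 after CBL0137, by 4.06 after panobinostat and by 6.20 after both (limma adjusted p = 0.00201, 0.00102 and 1.3e-05), and combination library 3 lay below CBL0137 library 3. Bst2, the virion-retaining protein tetherin, was chosen after its values were seen, and had a departure of -0.93 ± 0.56. Bst2 was at 572, 755 and 401 TPM after both drugs and 47.95 and 58.9 TPM after panobinostat, and panobinostat alone raised it by 2.77 (limma adjusted p = 0.00105).

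**Figure D3:**
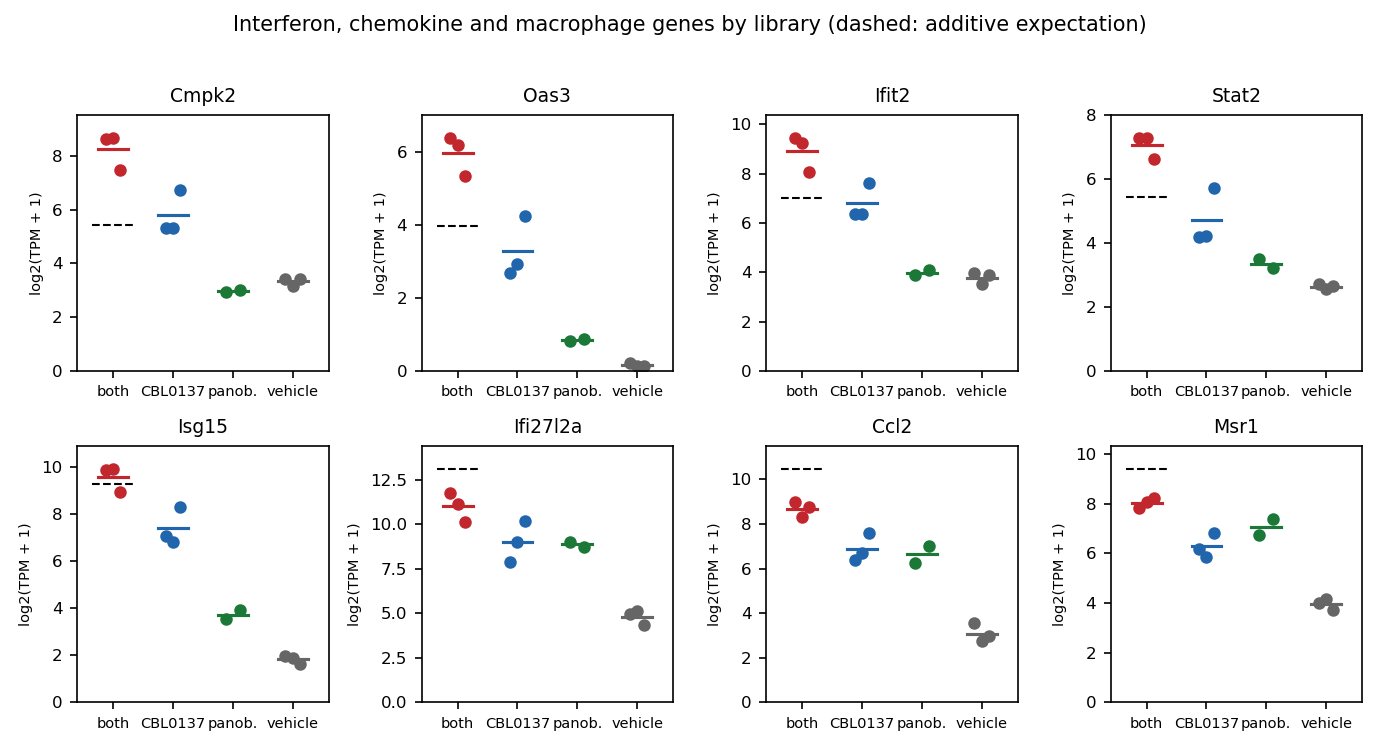
log2(TPM + 1) of interferon, chemokine and macrophage genes in each library (points), with group means (bars) and the additive expectation for the combination (dashed line). The combination means lie above the dashed line for Cmpk2, Oas3, Ifit2, Stat2 and Isg15 (departures of 2.83, 1.99, 1.93, 1.64 and 0.29) and below it for Ifi27l2a, Ccl2 and Msr1 (-2.08, -1.76 and -1.34).

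Promoters of 4 effectors on both sides of additivity are given here, since these genes rose together and their start sites carry the letters of the element bound by interferon-activated ISGF3 and IRF factors. The sequences are from RefSeq (GRCm38.p6), 120 bases each from the 250 before the start site and read in the direction of the gene. Oas3 is chr5:120777675-120777794 (minus strand), Ifit1 chr19:34640744-34640863 (plus strand), Isg15 chr4:156200825-156200944 (minus strand) and Bst2 chr8:71537537-71537656 (minus strand). Capitals mark matches to GAAANNGAAA or its reverse complement TTTCNNTTTC, overlapping matches included.
Oas3: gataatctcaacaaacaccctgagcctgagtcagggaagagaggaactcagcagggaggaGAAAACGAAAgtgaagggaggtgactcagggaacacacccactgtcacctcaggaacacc
Ifit1: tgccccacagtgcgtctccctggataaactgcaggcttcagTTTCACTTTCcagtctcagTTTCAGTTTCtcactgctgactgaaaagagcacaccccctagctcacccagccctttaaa
Isg15: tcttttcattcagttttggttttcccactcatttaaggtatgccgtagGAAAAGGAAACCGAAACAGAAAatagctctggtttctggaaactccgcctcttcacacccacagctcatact
Bst2: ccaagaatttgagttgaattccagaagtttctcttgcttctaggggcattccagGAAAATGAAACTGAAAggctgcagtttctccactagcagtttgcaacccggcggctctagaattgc

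The promoters hold 1 match in Oas3, 2 in Ifit1, 3 in Isg15 and 2 in Bst2 within these windows. The match nearest the start site ends 65, 75, 56 and 114 bases before it in the same order. A promoter was given for 30 of the 39 interferon effectors, and 15 of them (50%) held the motif in the 250 bases before the start, against 936 of 27025 genes with a promoter (3.46%). Among effectors above additive 12 of 25 held it, and among those below additive 3 of 5. Of the genes ranked above additive 1 of 11 held it, and of those ranked below 0 of 8.

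The sensors and transcription factors upstream of these genes were split. Of 21, 12 were above additive and 9 below (median 0.19, and 0.06 without the doubted libraries). All 21 rose after both drugs (limma, 35.9% of all genes). The median was -0.06 without CBL0137 library 1 and 0.68 without CBL0137 library 3. All 21 were above the sum of TPM changes (61.5% of all genes, median 1.44 for the list). Stat2, a subunit of ISGF3, had 154, 154 and 96.5 TPM after both drugs, 17.3, 17.5 and 51.4 TPM after CBL0137, 10.2 and 8.18 TPM after panobinostat and 5.52, 4.83 and 5.23 TPM after vehicle, a departure of 1.64 ± 0.54 with all combination libraries above all others. Irf9, the DNA-binding subunit of the same complex, had 76.2, 88.1 and 59.5 TPM in the combination tumours, against 42.8, 36.3 and 70.5 TPM with CBL0137, 14.2 and 15.1 TPM with panobinostat and 6.12, 4.37 and 4.09 TPM with vehicle, a departure of -0.82 ± 0.36. Irf9 in combination library 3 lay below CBL0137 library 3. Irf7, which amplifies type I interferon, had 623, 719.8 and 337 TPM after both drugs, 94.9, 88.5 and 263 TPM after CBL0137, 7.24 and 10.3 TPM after panobinostat and 1.65, 2.39 and 1.550 TPM after vehicle, a departure of 0.26 ± 0.61. Mb21d1, the cytosolic DNA sensor cGAS, had 8.33, 5.96 and 3.97 TPM in the combination tumours, against 1.02, 0.81 and 1.70 TPM with CBL0137, 1.28 and 1.58 TPM with panobinostat and 0.49, 0.41 and 0.20 TPM with vehicle, a departure of 0.84 ± 0.39. Combination values of Irf7 and Mb21d1 were above all others.

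Antigen presentation genes lay on both sides of additivity. Of the 19 MHC class I and peptide loading genes, 8 were above additive and 11 below (median -0.09, and -0.11 without the doubted libraries). All 19 rose after both drugs (limma, 35.9% of all genes). The median was -0.31 without CBL0137 library 2 and 0.40 without CBL0137 library 3. All 19 were above the sum of TPM changes (61.5% of all genes, median 1.16 for the list). B2m, the invariant light chain, had 2949, 3281 and 1805 TPM after both drugs, 543, 491 and 1407 TPM after CBL0137, 599 and 688 TPM after panobinostat and 94.8, 123 and 103 TPM after vehicle, a departure of -0.74 ± 0.55. H2-K1, a heavy chain, had a departure of -0.52 ± 0.66. The immunoproteasome subunits Psmb8 and Psmb10 had departures of opposite sign, -1.01 ± 0.56 and 0.83 ± 0.51. Panobinostat alone raised Psmb8 by 2.92 (limma adjusted p = 0.000903) and gave 0.62 for Psmb10 (limma adjusted p = 0.211).

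MHC class II genes were below additive in 10 of 10 (51.7% of all genes), with a median of -1.01 and of -1.15 without the doubted libraries. At an unadjusted p under 0.05, 0 were below and 0 above (limma, 5.25% and 5.28% of all genes). Against the sum of TPM changes 7 of 10 were above expectation, near the share of all genes (61.5%). H2-Ab1, a class II beta chain, had 279, 207 and 155 TPM after both drugs, 47.5, 37.4 and 145 TPM after CBL0137, 138 and 108 TPM after panobinostat and 12.8, 21.2 and 14.1 TPM after vehicle. H2-Aa, its alpha chain, had 716, 532 and 344 TPM in the combination tumours, against 104, 103 and 337 TPM with CBL0137, 326 and 216 TPM with panobinostat and 38.2, 38.9 and 35.7 TPM with vehicle. The combination was above every other library in both genes, with CBL0137 library 3 close below and the other CBL0137 libraries much lower. The departures were -1.20 ± 0.66 and -1.07 ± 0.64, and those of the peptide loaders H2-DMa and H2-DMb1 were -0.93 ± 0.56 and -1.04 ± 0.61. Without CBL0137 library 3 the median of the list was -0.37. B cell markers, which were highest in that library, summed to 86.7, 39.95 and 32.5 TPM after both drugs, 8, 34.5 and 184 TPM after CBL0137, 25.1 and 21.7 TPM after panobinostat and 4.05, 3.54 and 5.55 TPM after vehicle. All 10 were below additive (median -0.68), but without CBL0137 library 3, 7 of 10 were above it (median 0.12), and their part in the class II values was not tested.

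Chemokines and cytokines rose in all 28 tested members after both drugs (limma, 35.9% of all genes). Yet 19 were below additive and 9 above, with a median of -0.38 and of -0.30 without the doubted libraries. At an unadjusted p under 0.05, 6 were below and 1 above (5.25% and 5.28% of all genes). Against the sum of TPM changes 23 of 28 were above expectation (61.5% of all genes). Attractants of monocytes and neutrophils were among those below. Ccl2 had 511, 314 and 433 TPM after both drugs, 82.9, 102 and 190.1 TPM after CBL0137, 75.98 and 129 TPM after panobinostat and 10.7, 5.66 and 6.83 TPM after vehicle. Ccl2 rose by 3.80 after CBL0137 and 3.56 after panobinostat, and both together by 5.60 (limma adjusted p = 0.000234, 0.000452 and 3.9e-06). Its departure was -1.76 ± 0.51, although the combination lay above all other libraries. Ccl6 had a departure of -2.11 ± 0.70. Cxcl5, a neutrophil attractant, had 5.36, 1.01 and 4.99 TPM in the combination tumours, against 0.86, 1.32 and 2.72 TPM with CBL0137, 10 and 10.7 TPM with panobinostat and 0.43, 0.47 and 0.30 TPM with vehicle, a departure of -2.27 ± 0.63 with the combination below panobinostat in every library. Cxcl1, of the same function, had -1.84 ± 0.62. Cxcl10, an interferon-induced attractant of T cells, had 1133, 825 and 441 TPM after both drugs, 96.6, 83.2 and 317 TPM after CBL0137, 5.85 and 4.27 TPM after panobinostat and 1.36, 1.62 and 0.96 TPM after vehicle, a departure of 1.05 ± 0.72. Cxcl11, chosen after its values were seen, had 2.12 ± 0.75. Without CBL0137 library 3 the median of the list was 0.01.

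Markers of macrophages and monocytes were below additive in all 23 tested members, with a median of -0.78, and in all 23 without the doubted libraries (median -0.58). The combination libraries gave -0.59, -0.54 and -0.94. All 23 nevertheless rose after both drugs, 22 after panobinostat and 15 after CBL0137 (limma, against 35.9%, 25.5% and 4.99% of all genes). Against the sum of TPM changes 21 of the markers were above expectation (61.5% of all genes). Their summed TPM was 9315, 13183 and 9754 after both drugs, 2438, 2207 and 4508 after CBL0137, 5474 and 6922 after panobinostat and 1013, 1244 and 1201 after vehicle. Msr1, a scavenger receptor, had 226, 269 and 299 TPM after both drugs, 70.4, 57.3 and 111 TPM after CBL0137, 105 and 165 TPM after panobinostat and 14.9, 16.8 and 12.1 TPM after vehicle, a departure of -1.34 ± 0.37. C1qa, a complement subunit, had 770.0, 1237 and 761 TPM in the combination tumours, against 193, 176 and 357 TPM with CBL0137, 420.5 and 584 TPM with panobinostat and 60.4, 68.1 and 76.6 TPM with vehicle, a departure of -0.88 ± 0.42. The combination was above all other libraries in both. Ccr2, the Ccl2 receptor of monocytes, overlapped between the combination and panobinostat, with 149.9, 64.8 and 94.2 TPM after both drugs, 7.83, 10.2 and 12.9 TPM after CBL0137, 79.8 and 98.02 TPM after panobinostat and 4.98, 2.31 and 2.29 TPM after vehicle, and had a departure of -1.34 ± 0.49. Cx3cr1, the fractalkine receptor, was lower after both drugs than after panobinostat in every library, at 6.27, 11.3 and 7.53 TPM after both drugs and 25.2 and 23.3 TPM after panobinostat, with a departure of -1.22 ± 0.38. The median of the markers was -0.43 without CBL0137 library 3.

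Among other stromal groups, 5 of 8 neutrophil markers were below additive (median -0.67, and -0.34 without the doubted libraries), with S100a8 at 181, 221 and 188 TPM after both drugs, 14.5, 14.9 and 24.3 TPM after CBL0137, 58.2 and 151 TPM after panobinostat and 5.64, 1.34 and 0.98 TPM after vehicle and a departure of -1.50 ± 0.69. Retnlg, another neutrophil gene, had a departure of -1.96 ± 0.73. Fibroblast and pericyte markers were below additive in 17 of 22 (median -0.36, and -0.43 without the doubted libraries). All 22 rose after both drugs and after panobinostat (limma, 35.9% and 25.5% of all genes). Without CBL0137 library 3 the median was 0.05. Against the sum of TPM changes 18 of 22 fibroblast and pericyte markers (median 0.49) and 6 of 8 neutrophil markers (median 0.73) were above expectation. Of all genes 61.5% were. Postn, the matrix protein periostin, had 961, 673 and 843 TPM in the combination tumours, against 108, 159.9 and 265 TPM with CBL0137, 682 and 811 TPM with panobinostat and 92.9, 45.5 and 79.2 TPM with vehicle. The combination and panobinostat overlapped for Postn, and its departure was -1.11 ± 0.49. Lum, a matrix proteoglycan, had a departure of -1.42 ± 0.78. Endothelial markers had a median of 0.05 (-0.02 without the doubted libraries), with 11 above and 7 below, and it was -0.22 without CBL0137 library 2 and 0.35 without CBL0137 library 3. All 18 were above the sum of TPM changes (median 0.85). The vascular growth factor receptors Kdr and Flt1 had 0.65 ± 0.50 and 0.70 ± 0.50, with the combination above all other libraries. Schwann cell and glial markers had a median of -0.38 (-0.37 without the doubted libraries), 4 above and 10 below, and the glial genes Foxd3 and Fabp7 had -1.39 ± 0.74 and -1.39 ± 0.81. NF-kB targets had a median of -0.14 (-0.12 without the doubted libraries, 0.19 without CBL0137 library 3), all 18 were above the sum of TPM changes, and Bcl2a1b, an antiapoptotic member of that list, had 91.5, 95.6 and 85.9 TPM after both drugs, 21.6, 22.5 and 43.9 TPM after CBL0137, 67.8 and 61.9 TPM after panobinostat and 6.18, 6.59 and 5.79 TPM after vehicle, a departure of -1.52 ± 0.33. Of 9 dendritic cell markers 6 were below additive and 3 above (median -0.13, and 0.04 without combination library 3). The lowest p among them was that of Batf3, a dendritic cell factor, at -0.94 ± 0.31. Of 12 checkpoint genes, 9 were above additive and 3 below (median 0.23, and 0.17 without the doubted libraries). Cd274, which encodes PD-L1, had 90.5, 62.4 and 37.5 TPM in the combination tumours, against 9.67, 8.12 and 30.5 TPM with CBL0137, 5.31 and 4.23 TPM with panobinostat and 0.91, 0.84 and 0.78 TPM with vehicle, a departure of 0.42 ± 0.66. Ido1, a tryptophan-degrading enzyme, had 1.01 ± 0.45. Its values were low, at 2.93, 1.25 and 0.77 TPM after both drugs and 0 to 0.57 TPM in the other libraries. Vsir (4632428N05Rik) and Lgals9 were below additive, at -0.78 ± 0.36 and -0.55 ± 0.51.

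**Figure D4:**
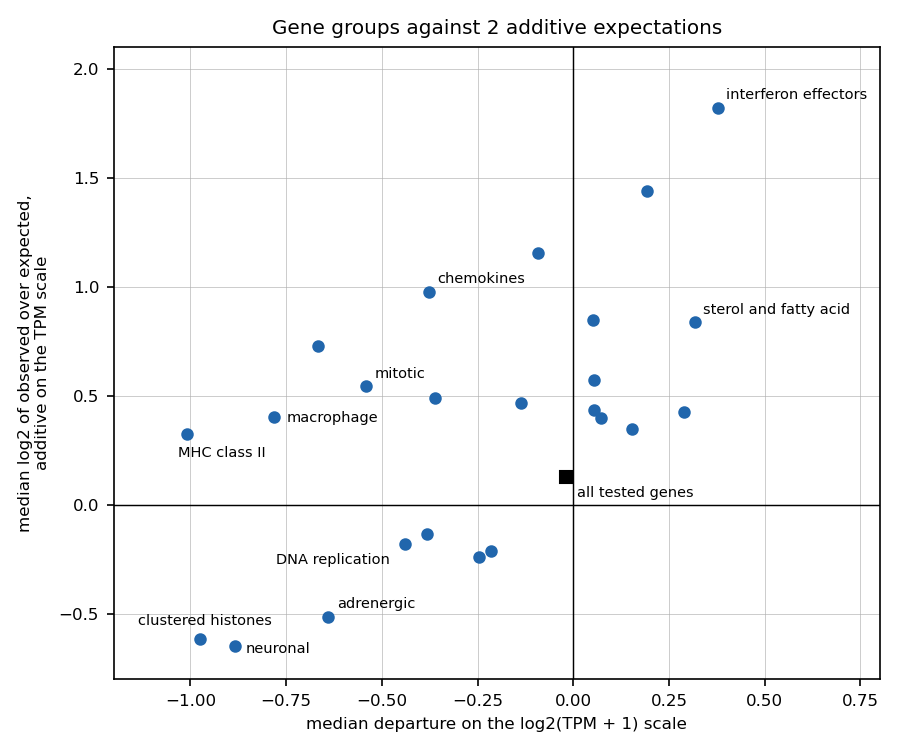
Median departure of 24 gene groups from 2 expectations, the sum of log2 changes (horizontal axis) and the sum of TPM changes (vertical axis, log2 of observed over expected). Interferon effectors were above both (0.38 and 1.82), macrophage markers were below the first and above the second (-0.78 and 0.40), and neuronal genes were below both (-0.88 and -0.65).

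Cell cycle genes were below additive, furthest so in combination library 2. All 36 mitotic genes were below additive (51.7% of all genes), with a median of -0.54. It was -0.07, -1.32 and -0.14 for combination libraries 1 to 3, and -0.13 without the doubted libraries. Against the sum of TPM changes, however, 28 of 36 were above expectation (61.5% of all genes, median 0.54 for the list). DNA replication genes gave 40 of 40 below, a median of -0.44, library values of -0.20, -1.02 and -0.06 and a median of -0.23 without those 2 libraries. At an unadjusted p under 0.05, 1 mitotic and 0 replication genes were below additive (limma, 5.25% of all genes), and 0 of either list above (5.28%). Both drugs together lowered all 36 mitotic and 39 of 40 replication genes (limma, 30.1% of all genes). Mki67, a marker of cycling cells, had 112, 38.5 and 106 TPM after both drugs, 260.1, 235 and 166 TPM after CBL0137, 236 and 189 TPM after panobinostat and 408, 281 and 325 TPM after vehicle, a departure of -0.82 ± 0.54. Top2a, the mitotic topoisomerase, had 155, 54.6 and 145 TPM in the combination tumours, against 399, 372 and 248 TPM with CBL0137, 225 and 219 TPM with panobinostat and 458, 358 and 413 TPM with vehicle, a departure of -0.75 ± 0.52. Combination library 2 was far the lowest in both genes. Aurkb and Bub3, of chromosome segregation, had -0.82 ± 0.46 and -0.63 ± 0.28, and Mcm5 and Cdc6, of origin licensing, -0.75 ± 0.41 and -0.77 ± 0.45. Ccnd1, cyclin D1, had 106, 72.8 and 119 TPM after both drugs, 342, 300.1 and 316 TPM after CBL0137, 192 and 165 TPM after panobinostat and 375, 278 and 309 TPM after vehicle, a departure of -0.87 ± 0.27. Its combination libraries were -0.75, -1.28 and -0.57 from expectation, and its partner Cdk4 had -0.46 ± 0.26.

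The clustered histone genes, whose mRNAs are made in S phase and lack poly(A) tails, were below additive in 64 of 68, with a median of -0.97 and -0.40 without the doubted libraries. At an unadjusted p under 0.05, 5 of these histone genes were below and 0 above (limma, 5.25% and 5.28% of all genes). Their summed TPM was 36322, 12609 and 39546 after both drugs, 91252, 87740.3 and 64059 after CBL0137, 56289.5 and 54440.0 after panobinostat and 83079, 87049 and 95995 after vehicle. Combination library 2 was again the lowest. Hist1h2bf had 188, 60.04 and 220.2 TPM after both drugs, 549, 568 and 424 TPM after CBL0137, 378 and 361 TPM after panobinostat and 453, 339 and 465 TPM after vehicle, a departure of -1.74 ± 0.59, and Hist3h2ba had -1.66 ± 0.70. Near-identical histone copies share reads, so the split between single genes is uncertain. The replication-independent variants were below additive in 10 of 11 (median -0.43, and -0.31 without the doubted libraries). H2afv, an H2A.Z gene, had 30.3, 28.8 and 29.04 TPM in the combination tumours, against 55.5, 58.4 and 41.8 TPM with CBL0137, 47.3 and 51.98 TPM with panobinostat and 47.97, 46.9 and 48 TPM with vehicle, a departure of -0.84 ± 0.18 in which the 3 combination libraries were -0.80, -0.87 and -0.86. H1f0, a linker histone of resting cells, had -0.90 ± 0.32, and H2afx, the histone marked at DNA breaks, -1.11 ± 0.54.

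Among the named genes encoding the drugs' targets, those of FACT were nearest to additive. Ssrp1 and Supt16, the FACT subunits, had -0.05 ± 0.21 and -0.01 ± 0.22. Ssrp1 was at 110.2, 85.5 and 116 TPM after both drugs, 205, 194 and 154 TPM after CBL0137, 137 and 128 TPM after panobinostat and 240.3, 223 and 219.8 TPM after vehicle, lowest in the combination. Hdac1 and Hdac2 had 0.22 ± 0.18 and -0.23 ± 0.21, and Hdac6, a cytoplasmic deacetylase, -0.64 ± 0.26. Asf1b, a histone chaperone of S phase, had -0.87 ± 0.38. Of 21 DNA methylation and heterochromatin silencing genes, 9 were above additive and 12 below (median -0.13, and -0.11 without the doubted libraries). Both drugs together lowered 15 of them and raised 2 (limma, 30.1% and 35.9% of all genes). Morc3 and Mbd2, which bind histone H3K4 methylation and methylated DNA, had 0.89 ± 0.22 and 0.78 ± 0.25, each with all combination libraries above all others.

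Ribosomal and mitochondrial genes showed small shifts shared by most members. Cytosolic ribosomal protein genes were below additive in 76 of 82, with a median of -0.22 and -0.16 without the doubted libraries. Rpl31 had 851, 821 and 999 TPM after both drugs, 1219.5, 1327 and 1208 TPM after CBL0137, 1064 and 1017 TPM after panobinostat and 1063, 1087 and 1035 TPM after vehicle, a departure of -0.46 ± 0.15 with the combination below all others, and Rpl10a had -0.45 ± 0.16. Oxidative phosphorylation genes were below additive in 73 of 81. At an unadjusted p under 0.05, 4 were below and 0 above (limma, 5.25% and 5.28% of all genes). Their median of -0.25 was -0.06 without the doubted libraries and 0.05 without panobinostat library 3 alone. Muscle RNA was high in that library, and its part was not tested. Ndufv3, a complex I subunit, and Atp5e, an ATP synthase subunit, had -0.47 ± 0.16 and -0.68 ± 0.22. MYC targets of ribosome biogenesis had a median of 0.05 (0.10 without the doubted libraries), and all 32 fell after both drugs (limma, 30.1% of all genes). Utp20, a processing factor of ribosomal RNA, had 0.45 ± 0.17. Of the 12 tested genes of the MYC, MAX and MXD network, 6 were above additive and 6 below (median 0.005). Without the doubted libraries 8 were below and 4 above (median -0.26). In the MYC network, Max, the dimer partner of MYC proteins, had 78.9, 82.5 and 61.2 TPM in the combination tumours, against 47.1, 46.7 and 58.6 TPM with CBL0137, 43.2 and 40.6 TPM with panobinostat and 50.1, 51.8 and 46.9 TPM with vehicle, a departure of 0.77 ± 0.20. Mxd1, a MAX partner that represses, had 36.5, 24.8 and 22.1 TPM after both drugs, 6.42, 6.98 and 12.02 TPM after CBL0137, 6.10 and 4.99 TPM after panobinostat and 4.20, 3.16 and 4.57 TPM after vehicle, a departure of 1.22 ± 0.38. The combination was above all other libraries in both genes.

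The amino acid stress and unfolded protein response list was above additive in 21 of 27 genes, with a median of 0.29, library values of 0.20, 0.33 and 0.26 and 0.30 without the doubted libraries. At an unadjusted p under 0.05, 5 were above and 0 below (5.28% and 5.25% of all genes). After both drugs 12 of the 27 rose and 10 fell (limma, against 35.9% and 30.1% of all genes). Xbp1, the splicing-activated stress factor, had 114, 146 and 115 TPM after both drugs, 62.5, 61.3 and 69.9 TPM after CBL0137, 66.3 and 82.9 TPM after panobinostat and 56.3, 71.4 and 56.2 TPM after vehicle, with the combination above all others and a departure of 0.66 ± 0.21. Slc3a2, an amino acid transporter subunit, had 0.61 ± 0.20. Cars, cysteinyl-tRNA synthetase, had 17.9, 16.5 and 18.9 TPM in the combination tumours, against 21.5, 20.1 and 19.4 TPM with CBL0137, 18.6 and 18.6 TPM with panobinostat and 44.7, 28.6 and 36.6 TPM with vehicle. The log2 change of Cars was -0.80 after CBL0137, -0.92 after panobinostat and -0.98 after both (limma adjusted p = 0.0137, 0.00221 and 0.000233), so the combination overlapped panobinostat and its departure was 0.73 ± 0.22. Nars, asparaginyl-tRNA synthetase, had 0.45 ± 0.16. Hmgcs1, of sterol synthesis, had 0.56 ± 0.23. The sterol and fatty acid list had a median of 0.32, which was 0.64 in combination library 2 and 0.04 without it and panobinostat library 3, and Fasn, fatty acid synthase, had 1.31 ± 0.53 and 0.43 without those libraries. Adrenal cortex RNA was high in combination library 2, and its part was not tested.

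Heat shock chaperones had a median of 0.15 (0.23 without the doubted libraries). Dnaja1, an HSP40 cochaperone, had 81.1, 86.3 and 72.8 TPM after both drugs, 97.1, 101 and 90.97 TPM after CBL0137, 59.01 and 54.9 TPM after panobinostat and 101, 109.8 and 99.6 TPM after vehicle, a departure of 0.59 ± 0.14. Panobinostat alone lowered it by 0.85 (limma adjusted p = 0.00053), and the combination by 0.37 (limma adjusted p = 0.00456), so the combination libraries lay between the panobinostat ones and the rest. Bag3, a chaperone partner, had 0.64 ± 0.28.

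Of 34 p53 targets, 21 were above additive and 13 below (median 0.07, and 0.12 without the doubted libraries). At an unadjusted p under 0.05, 4 were above and 1 below (5.28% and 5.25% of all genes). Mdm2, the ubiquitin ligase of p53, had 57.4, 58.9 and 59.8 TPM in the combination tumours, against 41.2, 37.1 and 46.9 TPM with CBL0137, 40.6 and 34.1 TPM with panobinostat and 51.7, 40.7 and 46.1 TPM with vehicle. The combination was above all others, neither drug alone changed Mdm2 past the threshold (limma adjusted p = 0.505 and 0.104), and both together raised it by 0.35 (limma adjusted p = 0.0273). Its departure was 0.79 ± 0.18, with 0.75, 0.79 and 0.81 for the 3 combination libraries. Cdkn1a, the p21 inhibitor of cell cycle kinases, had 48.8, 55.7 and 63.5 TPM after both drugs, 15.8, 15.9 and 47.5 TPM after CBL0137, 23.5 and 23.5 TPM after panobinostat and 6.47, 4.56 and 3.86 TPM after vehicle, a departure of -0.82 ± 0.54. Plk2 and Apaf1, a stress kinase and the apoptosome scaffold, had 0.63 ± 0.21 and 0.62 ± 0.22, and Ptp4a3, a phosphatase, -0.82 ± 0.22. BCL2 family and death genes had a median of 0.05 (0.04 without the doubted libraries). Hrk, a neuronal BH3-only death activator, had 4.13, 2.77 and 5.50 TPM in the combination tumours, against 19.9, 22.6 and 18.1 TPM with CBL0137, 12.02 and 7.60 TPM with panobinostat and 23.4, 16.2 and 17.8 TPM with vehicle, a departure of -1.16 ± 0.35 with the combination below all others. Mcl1, an antiapoptotic member, and Xiap, a caspase inhibitor, had 0.44 ± 0.20 and 0.57 ± 0.21, each with the combination above all others. Ier5, an immediate-early gene, had 0.71 ± 0.24.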

How the data were processed

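Whole-tumour RNA of 11 Th-MYCN neuroblastomas was sequenced from stranded, rRNA-depleted total RNA, per the labels' protocols. The authors deposited gene-level TPM. STAR, SAMtools, RSEM and mm10 are named in the submitters' processing notes, and their versions and the annotation release are not given in the sources used here. TPM keep no read depth, so the depth of each library is unknown, and small values carry a counting error that cannot be computed.

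From the deposited TPM, log2(TPM + 1) was fitted with a mean per group in limma 3.58.1 (R 4.3.3, empirical Bayes with trend, 7 residual degrees of freedom) over the 15497 genes with at least 1 TPM in 2 libraries. The departure is combination minus CBL0137 minus panobinostat plus vehicle. The same fit gave each treatment minus vehicle. P-values were adjusted by Benjamini-Hochberg over all tested genes and called at 0.05. The TPM-scale expectation adds the group-mean TPM changes. The fit was tested on simulated data with 50 changed genes per size of departure. At an adjusted p under 0.05 it called 0% of those with a departure of 0.5, 22% at 1, 68% at 2 and 86% at 3. Tables and figures used Python 3.11.15, numpy 2.4.6, pandas 2.3.3 and matplotlib 3.10.9.

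The members and gene lists were chosen with earlier results of these data known. Named genes are the 12 lowest limma p in each direction under the limits given with the ranking, leaving out unnamed gene models, clustered histone genes, small RNA genes and antigen receptor segments. To these come up to 4 genes per list with the lowest p and a fixed panel. Bst2 and Cxcl11 were added after their values were seen. In the table, 27 symbols had been turned into dates, and those genes are called by transcript ID. Some single-gene results are not reported here. The alternatives tried were other scalings (TMM factors, the trimmed mean of M values, quantile normalization, rescaling without histone and small RNA genes), pseudocounts, filters, library weights, no trend, the replicate number as a block, the TPM scale and left-out libraries.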

Additional observations from a re-analysis of the deposited data

Results flagged for a closer look

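In 22 of the named genes, one drug shifted every library one way when given alone and every library the opposite way when given on top of the other drug. The values in parentheses are the departures. No departure passed the limma interaction test (adjusted p of 0.304 or more). Opposite shifts of this kind were found in 2.21% of all tested genes. Apart from a fixed panel and genes added after their values were seen, the named genes were chosen by a low limma p of the departure. Opposite shifts make a departure larger, so this choice favoured them. The 22 genes are therefore a description, and their number cannot be weighed against the 2.21%.

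Every combination library was above every CBL0137 library, while every panobinostat library was below every vehicle library, in Cmpk2 (2.83), Daxx (1.63), Dusp2 (1.43), Dck (1.25), Tor1aip2 (1.21), Rnf114 (1.10), Ankle2 (1.07), Mdm2 (0.79) and Max (0.77). The opposite pair of shifts, combination below CBL0137 and panobinostat above vehicle, was found in Cacnb1 (-1.31) and Ptp4a3 (-0.82). Every combination library was below every panobinostat library, while every CBL0137 library was above every vehicle library, in Ffar3 (-2.07), Ddc (-1.58), Pnck (-1.42), Gap43 (-1.64), Lyrm9 (-1.15), Cxcl5 (-2.27), Cxcl1 (-1.84) and Rpl31 (-0.46). For 3 genes this held for both drugs. The combination libraries of Nkain4 (-1.90) and Ckmt1 (-1.58) were below all single-drug libraries, which were above all vehicle libraries, and Ccdc86 (1.01) had the reverse.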

How the results depend on the processing

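With the TPM-scale expectation medians became 1.82 for interferon effectors, 0.32 for MHC class II genes, 0.98 for chemokines, 0.40 for macrophage markers, 0.54 for mitotic genes and 0.43 for unfolded protein response genes, and these genes turned positive: Ifi27l2a (1.09), Irf9 (0.32), Bst2 (1.38), H2-Ab1 (0.22), H2-Aa (0.36), H2-DMb1 (0.40), H2-DMa (0.30), B2m (0.99), H2-K1 (1.01), Psmb8 (1.16), Msr1 (0.40), Ccr2 (0.099), C1qa (0.45), S100a8 (0.71), Ccl2 (0.93), Ccl6 (0.30), Bcl2a1b (0.049), Cdkn1a (0.31), Hdac2 (0.073), Ssrp1 (0.22) and Supt16 (0.32). With a pseudocount of 0.1 the medians were -0.26 for interferon effectors and -1.08 for chemokines, and Ifit1 (-0.49), Isg15 (-0.021), Irf7 (-0.15) and Cd274 (-0.22) turned negative. With a pseudocount of 5 they were 1.06 for interferon effectors, -0.48 for MHC class II genes, -0.077 for chemokines, -0.47 for macrophage markers and 0.19 for unfolded protein response genes. Quantile normalization gave 0.97 for interferon effectors, -0.048 for chemokines and 0.17 for unfolded protein response genes. TMM factors gave 0.21 for unfolded protein response genes, and testing without a filter gave -0.26 for chemokines. Rescaling without histone and small RNA genes moved the all-gene median to -0.14, gave 408 genes above and 1257 below additive at an unadjusted p under 0.05, and medians of -0.59 for chemokines, -0.34 for ribosomal protein genes and 0.18 for unfolded protein response genes. Library weights, which were 9.01 for vehicle library 3 and 0.34 to 2.32 for the others, gave 11 calls (Cmpk2, Dck, Ddc, Efnb3, Ffar3, Lipg, Pnck, Psme4, Ranbp2, Tbrg1 and Tor1aip2, limma adjusted p = 0.0433 each), 2994 genes at an unadjusted p under 0.05 (1279 above, 1715 below), -0.23 for MHC class II genes, -0.11 for chemokines and -0.53 for macrophage markers. Without combination library 2 and panobinostat library 3, 490 genes were above and 1024 below at an unadjusted p under 0.05, the median was -0.058 for oxidative phosphorylation genes, Th was -1.07, and Ssrp1 (0.038), Supt16 (0.061), Myl1 (0.40) and Mylpf (1.21) turned positive. The labels do not say what the replicate numbers mean. Same-numbered libraries correlated at -0.26 to 0.19 in their deviations from group means, and not every library correlated best with its own number. Deviations within groups of 2 or 3 libraries depend on each other, so these values cannot show whether the numbers mark a batch. With the replicate block 0 genes were called, 613 were above and 559 below at an unadjusted p under 0.05, and Supt16 was 0.043. Leaving out 1 library at a time gave 0 to 45 calls (45 without panobinostat library 1, mostly genes of muscle) and 543 to 1330 genes below additive and 546 to 1161 above at an unadjusted p under 0.05. Medians ranged over -1.31 to -0.37 for MHC class II genes, -0.66 to 0.012 for chemokines, -0.997 to -0.43 for macrophage markers, -0.50 to 0.053 for oxidative phosphorylation genes and 0.20 to 0.35 for unfolded protein response genes. Departures ranged over -0.82 to 0.043 for H2-K1, -0.020 to 0.76 for Irf7, -0.77 to 0.077 for Th, -0.17 to 0.087 for Ssrp1, -0.13 to 0.13 for Supt16, -7.76 to 0.016 for Myl1 and -8.04 to 0.50 for Mylpf. Of all list medians under all alternatives, 843 moved by less than the spread between combination libraries and 166 by more. Of the values of named genes, 2770 kept their direction and side of the threshold, 10 passed the threshold and 45 changed sign. The cause of these changes was not tested. With 7 residual degrees of freedom and 2 panobinostat libraries, standard errors of 0.14 to 0.81 for the genes above limit what the departure of a single gene can show.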

Other observations

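Of the immediate-early factors, 20 of 21 rose after both drugs and 15 after panobinostat (limma, against 35.9% and 25.5% of all genes), and 14 of 21 were above additive (median 0.14). That median was -0.01 without panobinostat library 1 and 0.46 without CBL0137 library 3. Homologous recombination and checkpoint genes fell in 23 of 28 after both drugs and in 8 after panobinostat (limma, against 30.1% and 16.9% of all genes). Of the 28, 23 were below additive (median -0.30), and at an unadjusted p under 0.05, 0 were below and 1 above (5.25% and 5.28% of all genes). Combination library 2 was furthest from expectation (-0.09, -0.95 and 0.01 for libraries 1 to 3), and without it the median was -0.09. CDK inhibitors and G1 cyclins were evenly split, with 8 above and 8 below. Glycolysis and hypoxia genes had a median departure of 0.11. Glucocorticoid-responsive genes and metallothioneins had one of -0.06 (0.18 without combination library 2 and panobinostat library 3). Of these 16, 12 rose after both drugs and 12 after panobinostat (limma, against 35.9% and 25.5% of all genes).

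Markers of fat summed to 9479, 7412 and 2537 TPM after both drugs, 538, 1401 and 1668 TPM after CBL0137, 3634 and 1839.9 TPM after panobinostat and 601, 419 and 237 TPM after vehicle. Erythroid markers varied within every group, with sums of 9448 to 15193 TPM after both drugs, 1396 to 14984 TPM after CBL0137, 9327 to 14896 TPM after panobinostat and 739 to 5699 TPM after vehicle. T cell markers were highest in combination library 1 and CBL0137 library 3, with sums of 149, 58.1 and 60.9 TPM after both drugs, 15.9, 32.3 and 113 TPM after CBL0137, 31.6 and 31.9 TPM after panobinostat and 9.89, 11.9 and 11.1 TPM after vehicle, and 11 of 15 were below additive (median -0.17). Without combination library 2 and panobinostat library 3, 10 of 15 were above it (median 0.06), and the median was -0.70 without combination library 1 and 0.42 without CBL0137 library 3.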
